A study of Drosophila melanogaster with 2 samples.

Results

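The segment polarity genes taken here were 10 genes of Drosophila melanogaster, out of 13945 protein-coding genes annotated on the 6 chromosome arms. They were wingless (wg), hedgehog (hh), frizzled (fz), patched (ptc), armadillo (arm), cubitus interruptus (ci), engrailed (en), invected (inv), naked cuticle (nkd) and bowl, listed by name and not picked by a signal threshold. Chromatin immunoprecipitation with sequencing maps the DNA that a protein, directly or through partners, was crosslinked to. The flies expressed CG10959 fused to eGFP, the material was their whole embryos at 0 to 8 h of age, and the antibody was against GFP, although the antibody field of the labels reads CG10959. There were 2 biological replicates of this 1 group, with no other strain, age or treatment, and the control library that the labels name was not analysed here. Binding in few cells and weak binding in many cells cannot be told apart in whole embryos.

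Segment polarity genes set the pattern inside each embryonic segment. Cells on the posterior side of a parasegment border express En and secrete Hh, their anterior neighbours answer through Ptc and Ci and secrete Wg, and Wg signalling through Fz and the beta-catenin Arm keeps en expressed in turn. Regulatory DNA of these genes is often found far upstream or in introns.

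A peak was assigned to a gene when its summit, the position of highest enrichment, lay inside the gene or had one of the gene's transcription start sites (TSSs) as its nearest TSS. The peaks came from the authors' pooled list of peaks past a threshold on IDR, the irreproducible discovery rate, called the main list below. Of its 3417 peaks on the arms, 26 were assigned to 8 of the 10 genes, and arm and ci had 0. Over all protein-coding genes, 17.2% had such a peak. The strongest lay in an intron of fz, with a signal of 780.4, and just before the TSS of bowl, with 544. Signal is the authors' own strength of a peak over a control. Its scale is not stated, so levels were compared only within a list and between lists by rank.

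The DNA under 8 of the 26 summits is shown so that base composition and the motif matches reported below can be seen in place. Each window is 101 bases centred on the summit, on the plus strand of dm6, from the RefSeq copy of that assembly. The 8 windows are the strongest peak of wg, hh, fz, nkd and bowl, both promoter peaks, and the other peaks of bowl and nkd among the 5 strongest of these 5 genes. They are not the 8 strongest of all: the ptc peak 5276 bp before its TSS, with a signal of 233, is not shown. Capitals mark matches to any of the 8-mers and factor motifs described further below.
fz intron, 29732 bp after the TSS, chr3L:14304025-14304125: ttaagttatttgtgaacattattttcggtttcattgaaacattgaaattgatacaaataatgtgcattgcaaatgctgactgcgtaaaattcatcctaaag
bowl promoter, 208 bp before the TSS, chr2L:3771442-3771542: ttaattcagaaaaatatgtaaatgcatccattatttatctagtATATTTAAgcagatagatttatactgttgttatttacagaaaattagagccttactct
nkd, 12108 bp after the TSS, chr3L:19033291-19033391: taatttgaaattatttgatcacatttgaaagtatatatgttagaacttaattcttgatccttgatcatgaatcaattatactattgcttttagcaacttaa
bowl intron, 2073 bp before the nearest bowl TSS, chr2L:3776815-3776915: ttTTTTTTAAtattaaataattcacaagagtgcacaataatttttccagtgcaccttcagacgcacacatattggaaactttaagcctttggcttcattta
nkd intron, 2713 bp after the TSS, chr3L:19042686-19042786: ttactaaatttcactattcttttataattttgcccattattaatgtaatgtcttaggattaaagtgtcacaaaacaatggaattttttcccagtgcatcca
wg upstream, 13484 bp before the TSS, chr2L:7293625-7293725: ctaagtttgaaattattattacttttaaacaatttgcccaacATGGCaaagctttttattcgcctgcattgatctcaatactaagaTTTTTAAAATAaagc
nkd promoter, 133 bp before the TSS, chr3L:19045532-19045632: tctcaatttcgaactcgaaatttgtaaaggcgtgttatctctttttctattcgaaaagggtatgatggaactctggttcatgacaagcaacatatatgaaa
hh upstream, 7358 bp before the TSS, chr3R:23149214-23149314: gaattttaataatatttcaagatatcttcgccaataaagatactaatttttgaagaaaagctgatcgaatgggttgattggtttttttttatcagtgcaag
The GC content of these windows ran from 22.8% at nkd, 12108 bp after its TSS, to 34.7% at the nkd promoter. All 8 were thus poorer in G and C than the mean of 43.7% ± 9.46 (SD, n = 26) measured 300 bp before the summits of all 26 assigned peaks. Against its own flanks, the nkd promoter window was not poorer, with 34.7% against 31.7%.

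By position, the 26 peaks stood away from promoters. Only 2 summits, at bowl and nkd, lay within 500 bp of a TSS, against 39.1% of all main-list summits. Introns held 14 (53.8%, against 35.4% of the main list), intergenic DNA held 9 (34.6%, against 19.9%), and 1 lay in an exon of a non-coding RNA. The median distance to the nearest TSS of any gene was 8555 bp, against 1026 bp for the main list. The 26 peaks are not independent: of the intron peaks fz held 6 and inv 3. The inv peaks overlap in a chain, and the 2 intergenic peaks of en overlap each other. The assignment also takes any summit inside a gene, which can add intron peaks and large distances at long genes. Genes with a summit inside were 6 of 10 (wg, fz, ptc, inv, nkd and bowl), against 9.64% of protein-coding genes. Genes whose TSS was the nearest to a summit were 8 of 10, against 15.2%. Promoter summits were found at 2 of 10 genes, against 11.3%, so the promoter count stood nearer to the background than the other counts.

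Gene length goes with the chance of holding a summit, and these genes are long. Of the 6 that span at least 10000 bp, 5 held a summit inside, against 38.5% of protein-coding genes of that length. Of the 4 shorter genes, 1 did (wg), against 4.86%. This single cut does not match the genes by length. Just under it lie wg, arm and ci, with 9107, 9246 and 9332 bp, while fz spans 94297 bp. Lengths within each class were not compared with the background. The genes were picked with earlier results known, and no test was made of these counts.

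**Figure D1:**
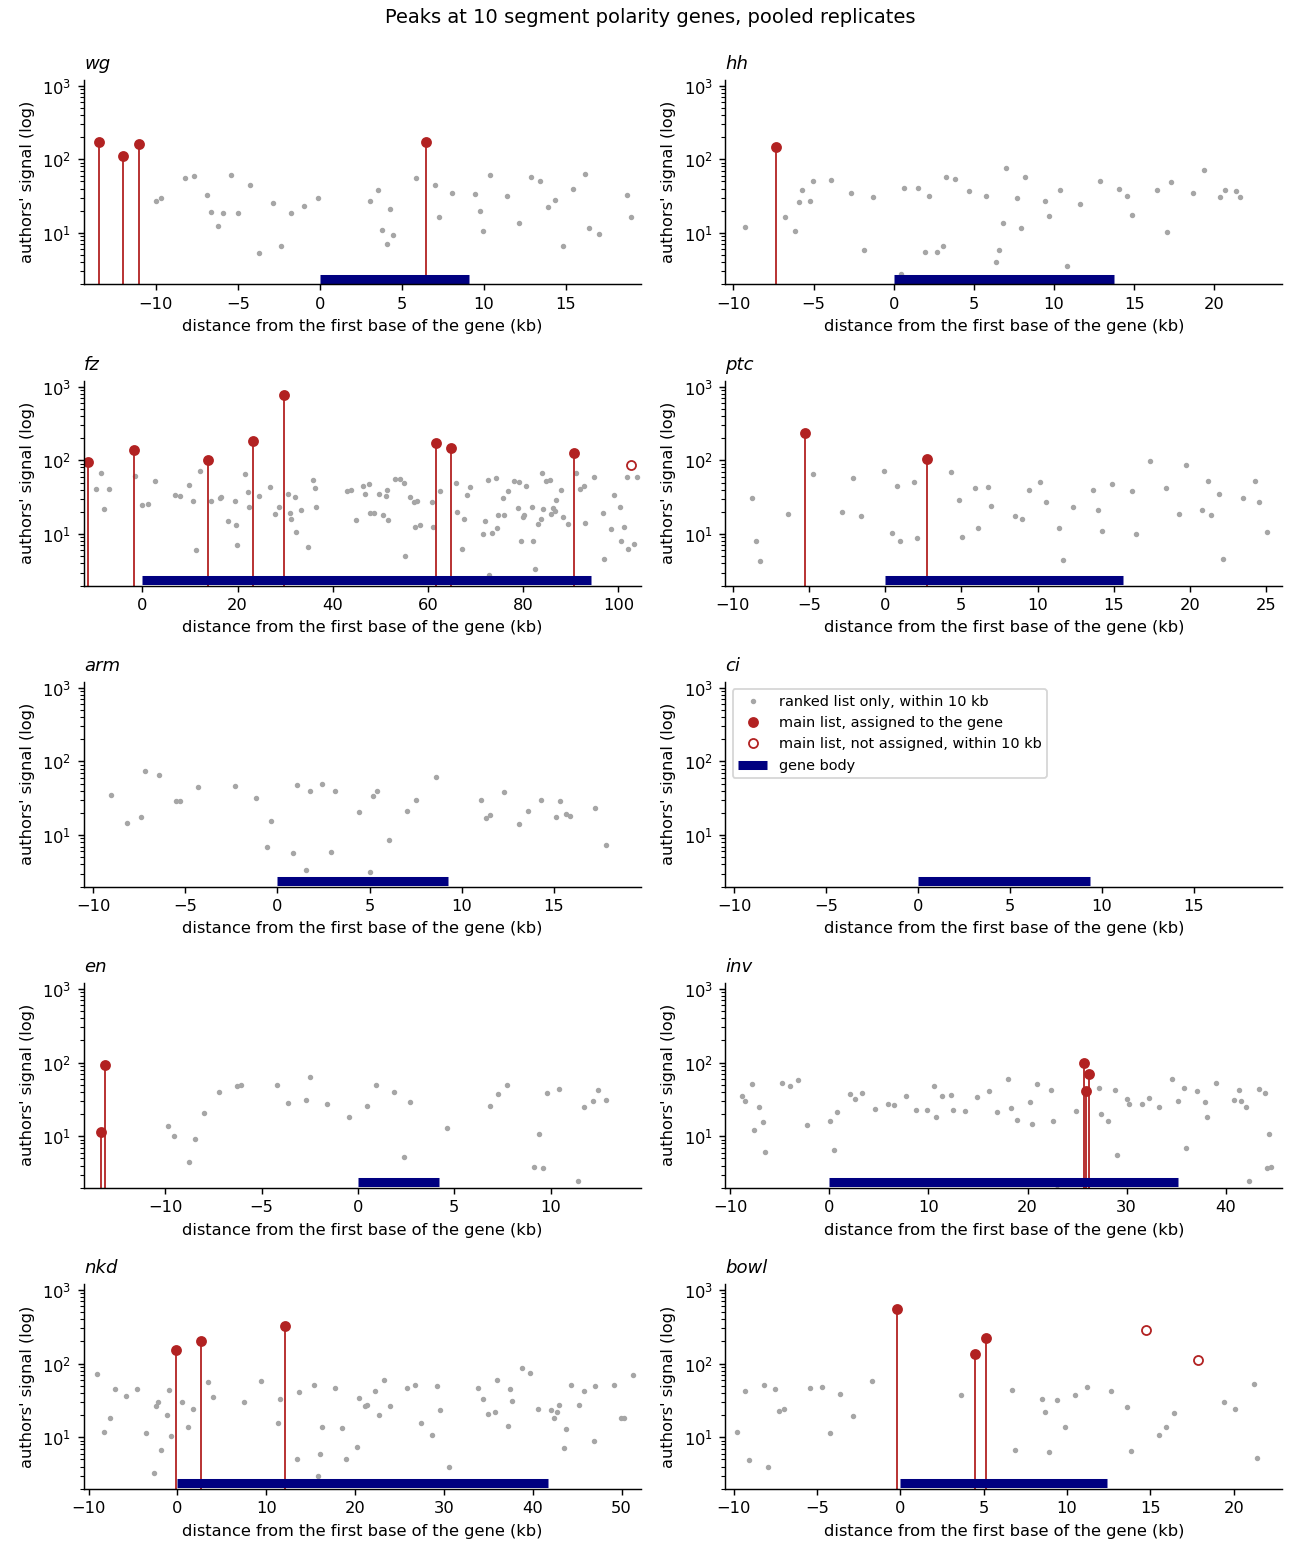
Peaks around each of the 10 genes, drawn in the direction of transcription. The horizontal axis is the distance from the gene's first base in kb and the vertical axis is the authors' pooled signal on a log scale. Filled red points with stems are the 26 main-list peaks assigned to the gene, open red points are other main-list peaks within 10 kb, grey points are peaks of the ranked list alone, and the blue bar is the gene. The fz intron peak (780.4) and the bowl promoter peak (544) stand highest, arm has grey points only, and ci has none.

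The ligand gene wg (chr2L:7307159-7316265, plus strand), which encodes the Wnt protein that gives the family its Drosophila name, had 4 peaks. A group of 3 intergenic peaks lay upstream, with summits 13484, 11983 and 11057 bp before the TSS and pooled signals of 173, 112 and 159.9. The fourth lay in an intron, 6466 bp after the TSS, with 169. In rank by signal these were peaks 1064, 1962, 1200 and 1101 of the main list, so wg had no peak in its upper quartile, which began at 199.7.

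The wg peaks were found in each replicate's ranked list, the longer list that also holds peaks short of the threshold (129184 peaks on the arms in replicate 1 and 133841 in replicate 2). The peak 13484 bp upstream was rank 682 in replicate 1 and rank 1512 in replicate 2. The intron peak was rank 1235 and rank 977, and the peak 11057 bp upstream rank 1572 and rank 1172. These 3 peaks were in both replicates' thresholded lists. The peak 11983 bp upstream was rank 1473 in replicate 1 and rank 4044 in replicate 2, and was in the thresholded list of replicate 1 alone.

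The other ligand gene, hh (chr3R:23128169-23141906, minus strand), had a single peak, intergenic, with its summit 7358 bp before the TSS at position 23149264 and a pooled signal of 149. It was rank 1203 in replicate 1 and rank 1951 in replicate 2, and in both thresholded lists. No main-list summit lay inside hh. The strongest ranked-list peak inside it lay in an intron 7030 bp after the TSS, with a signal of 76.9 and a score of 765, where every main-list peak scored at least 830.

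The receptor gene fz (chr3L:14274343-14368639, plus strand), which encodes the transmembrane receptor that binds Wg and also acts in planar cell polarity, had 8 assigned peaks, the most of the 10. Only 12 protein-coding genes had 8 or more. Its strongest peak (chr3L:14303942-14304192) lay in an intron, 29732 bp after the TSS, and was peak 55 of the main list. It was rank 79 in replicate 1, with a signal of 358 there, and rank 45 in replicate 2, with 424. Its summits in the replicates lay 8 and 6 bp from the pooled summit. The nearest TSS, of lncRNA:CR45025, was 22176 bp away.

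The remaining fz peaks were weaker, with pooled signals between 95.6 and 185. In introns, the peaks 23273, 61692, 64754 and 90573 bp after the TSS had signals of 185, 169, 146 and 126 and were in both replicates' thresholded lists. The nearest TSS to the last 3 of these was not that of fz but that of CG13482 (61692 and 64754 bp) or CG13481 (90573 bp). The intron peak 13825 bp after the TSS (99.7) was in the list of replicate 2 alone, with rank 6627 in replicate 1 and rank 1938 in replicate 2. Of the 2 peaks before the gene, that at 1825 bp (140.0) was in the list of replicate 1 alone and that at 11336 bp (95.6) was in neither. A further main-list peak (86.8) lay 102581 bp after the fz TSS, within 10 kb of the end of the gene, but nearest to CG43120.

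The gene of the Hh receptor, ptc (chr2R:8649649-8665223, plus strand), itself a target of Hh signalling, had 2 peaks. The stronger lay 5276 bp before the TSS with a signal of 233, peak 676 of the main list. It was rank 582 in replicate 1 and rank 842 in replicate 2, and in both thresholded lists. The other lay in an intron 2741 bp after the TSS with 104, and nearer to the TSS of lncRNA:CR44281. It was rank 2500 and rank 2566, and in the thresholded list of replicate 1 alone. At the ptc promoter, 83 bp before the TSS, the ranked list held a peak with a signal of 71.8 and a score of 166, in neither replicate's thresholded list.

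The 2 genes without an assigned peak were arm and ci. arm (chrX:1891401-1900646, minus strand) encodes beta-catenin, which carries the Wg signal to the nucleus. Within 10 kb it had 40 ranked-list peaks, of which the strongest lay 7204 bp before the nearest arm TSS, with a signal of 73.0 and a score of 581. In the replicates that peak had scores of 550 and 206, so it passed in neither. ci (chr4:47710-57041, minus strand) encodes the zinc finger protein that carries the Hh signal, and had 0 peaks within 10 kb in the pooled ranked list and in each replicate's. The nearest pooled ranked peak was 15686 bp from the gene, with a signal of 8.23. On the whole of chromosome 4, of 1348131 bp, there were 42 ranked peaks and 1 main-list peak. How much of that chromosome lacks a ranked peak within 10 kb, as ci does, was not counted.

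The paired homeodomain genes en and inv lie next to each other and are expressed in the same cells. At en (chr2R:11524006-11528210, minus strand) both assigned peaks lay far upstream and overlapped each other. Their summits were 13101 and 13312 bp before the TSS, with signals of 92.6 and 11.5. The second was peak 3357 of the main list, and its signal was under the median of the ranked list, 27.0. Both overlapped a single peak in each replicate, rank 17498 in replicate 1 and rank 2139 in replicate 2, so they stood in the thresholded list of replicate 2 alone. Neither was in the conservative list, another thresholded version of the pooled peaks by the authors. It held the other 24 of the 26 peaks, where it held 83.4% of all main-list peaks. It also held 2 that the main list lacks, at fz (67.1, 91177 bp after the TSS) and nkd (86.4, 38740 bp after the TSS). Within 10 kb of en the strongest ranked peak had 64.5.

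At inv (chr2R:11474465-11509695, plus strand) the 3 peaks overlapped in a chain in intronic DNA, with summits 24465, 24664 and 24953 bp after the nearest inv TSS and signals of 98.1, 41.0 and 69.9. The first was rank 1835 in replicate 1 and rank 2145 in replicate 2, in both thresholded lists. The third was rank 5291 and rank 2135 and in neither thresholded list. The middle peak overlapped replicate peaks whose summits lay 162 and 292 bp away, so its count as found in both replicates rests on its neighbours' peaks. With overlapping peaks merged, the 26 peaks made 23 sites.

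The gene of the Wg feedback inhibitor, nkd (chr3L:19003741-19045449, minus strand), had 3 peaks in its first part. The strongest (chr3L:19033231-19033389) lay 12108 bp after the TSS, in an exon of lncRNA:CR45940 within nkd, with a signal of 327. It was rank 272 in replicate 1 and rank 566 in replicate 2, and in both thresholded lists. The intron peak 2713 bp after the TSS had 200.5 and was in the list of replicate 1 alone, with ranks 594 and 1804. The promoter peak, 133 bp before the TSS, had 151 and was in the list of replicate 2 alone, with ranks 1788 and 960. By signal, each of these peaks was thus at rank 1804 or better in both replicates. By score, the intron peak had 60 in replicate 2 and the promoter peak had 27 in replicate 1, where thresholded peaks had at least 830.

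bowl (chr2L:3771700-3784121, plus strand), which encodes a zinc finger protein of the Odd-skipped family, had 3 peaks. The promoter peak (chr2L:3771365-3771615), 208 bp before the TSS, had 544 and was peak 130 of the main list. It was rank 88 in replicate 1 and rank 265 in replicate 2, with signals of 344 and 193, and in both thresholded lists. The intron peak 2073 bp before an internal bowl TSS had 225, ranks 525 and 1397, and was in both lists. The other intron peak, 2732 bp before that TSS, had 136, ranks 1210 and 1506, and was in the list of replicate 1 alone. Beyond the end of bowl, 2 main-list peaks lay within 10 kb but nearest to bark, a gene of cell junctions where 3 cells meet, 721 and 447 bp from its TSS, with 283 and 111.

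**Figure D2:**
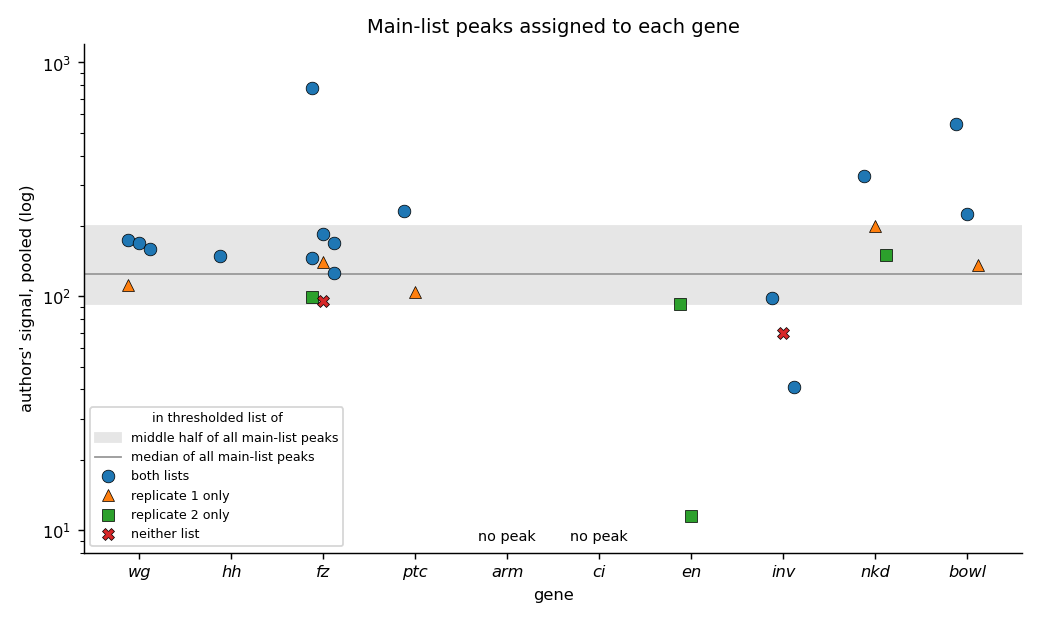
Pooled signal (log scale) of the 26 main-list peaks by gene. The shape and colour give the replicate whose own thresholded list holds the peak, and the grey band and line are the middle 50 percent and the median (125) of all main-list peaks. The fz (780.4) and bowl (544) peaks lie above the rest, the en and inv peaks lie below the median, and arm and ci have none.

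As a group, the 26 peaks had a median signal of 147, against 125 for the whole main list, and 17 lay above that median. In the upper quartile there were 6, or 23.1%, close to its share of the main list by construction, at fz (1 peak), ptc (1), nkd (2) and bowl (2). In order of the strongest peak the genes ran fz (780.4), bowl (544), nkd (327), ptc (233), wg (173), hh (149), inv (98.1) and en (92.6). The percentile of that peak was 98.4 in the main list for fz, 96.4 among replicate 1's own thresholded peaks and 98.2 among those of replicate 2. The same 3 percentiles were 96.2, 95.9 and 89.0 for bowl, 89.4, 87.2 and 76.3 for nkd, 80.2, 72.2 and 64.8 for ptc, 68.9, 67.4 and 59.4 for wg, and 61.0, 43.0 and 21.7 for hh. Those of inv were 30.7, 17.1 and 16.3, so wg and hh stood above inv in every list, while fz and bowl lay within 1 percentile point of each other in replicate 1. For en, replicate 1 gave no peak and replicate 2 gave 16.5, next to 16.3 for inv. The main list held 3417 peaks on the arms, and the thresholded lists of replicates 1 and 2 held 2043 and 2328. Since the lists differ in length, a lower percentile in a shorter list is not by itself a loss of standing.

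Both replicates' thresholded lists held 15 of the 26 peaks (57.7%), against 46.8% of all main-list peaks. Replicate 1 alone held 5, replicate 2 alone held 4, and 2 were in neither, against 26% in neither over the whole main list. Among the 24 peaks that are not at promoters 14 were in both, against 41.2% of such main-list peaks. Every one of the 26 overlapped a peak in each replicate's ranked list, with a median distance between summits of 15 bp for replicate 1 and 14 bp for replicate 2. The main list was made from both replicates and the ranked lists are long, so this overlap is not separate support. The same values over the whole main list are not given here. By percentile in the ranked list, 14 of the 26 stood higher in replicate 1. With 2 replicates, no error beyond these pairs of values can be given.

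**Figure D3:**
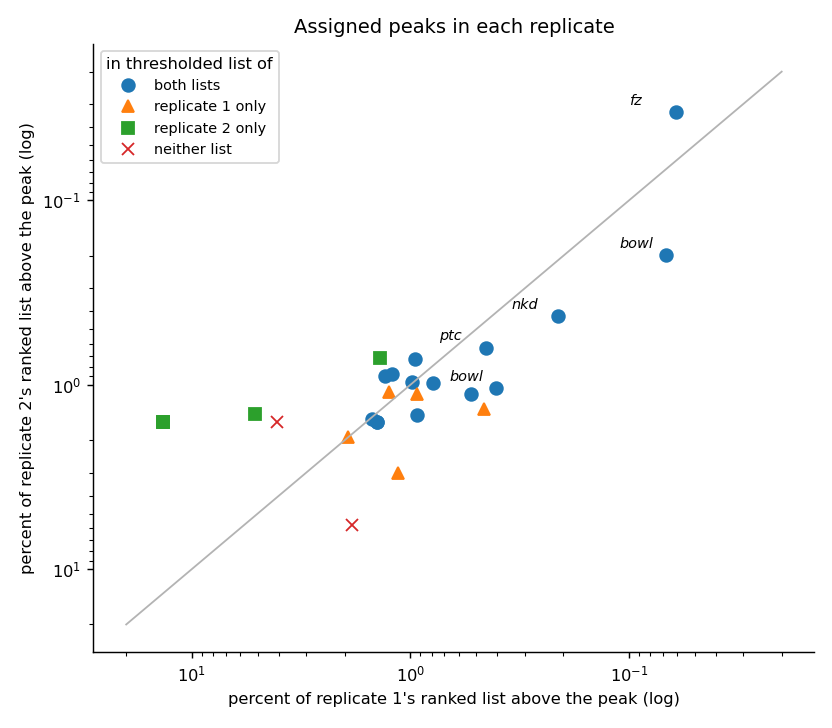
The 26 assigned peaks in each replicate. Each axis gives the percent of that replicate's ranked list with a higher signal than the peak, on a log scale that runs toward the strongest peaks at the upper right, and the line marks equal standing. The strongest fz peak stands higher in replicate 2 (rank 45 against 79), the strongest bowl and nkd peaks stand higher in replicate 1 (ranks 88 and 272 against 265 and 566), and the en pair lies far to the left (rank 17498 in replicate 1).

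Around the genes, the ranked list held 522 peaks within 10 kb, each counted once, of which 23 were in the main list. A ranked peak within 10 kb was found for 9 of the 10 genes, against 97.9% of protein-coding genes, so a ranked peak alone does not set a gene apart. The number per kb ran from 1.12 at fz to 1.55 at wg among those 9, where protein-coding genes had a median of 1.29 and quartiles of 1.08 and 1.44. Both replicates' ranked lists overlapped 72.8% of the 522, against 73% of all 144499 ranked peaks. By gene this share ran from 64% at ptc to 89.7% at bowl. The median signal of ranked peaks at each gene lay between 26.2 (arm) and 32.0 (bowl), near the 27.0 of the whole ranked list.

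Just short of the score of 830, ptc had a peak 4733 bp before its TSS, with a signal of 65.9 and a score of 817, beside the main-list peak 5276 bp before it. fz had an intron peak 12104 bp after its TSS with 71.9 and a score of 814. The ptc peak with the highest signal outside the main list lay in an intron of another gene, 17406 bp after the ptc TSS, with a signal of 98.8 and a score of 798. This ptc peak was thus stronger in signal than either en peak and the 3 inv peaks. At nkd the strongest ranked peak outside the main list lay in a coding exon 38740 bp after the TSS, with 86.4 and a score of 694. Those of wg (62.5), inv (60.2) and bowl (57.5) scored 209, 476 and 469. By score, the peak closest to the threshold at wg lay 8248 bp before the TSS, with 55.6 and a score of 727.

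The wider pathways were described by 3 lists of further genes. Over all protein-coding genes, as given above, 17.2% had an assigned peak, 9.64% a summit inside and 11.3% a promoter summit, with 38.5% holding a summit inside at 10000 bp or more and 4.86% below. Of 27 genes of the Wingless pathway, 14 had an assigned peak, 13 had a summit inside and 4 a promoter summit, the last near the background. A summit inside was held by 9 of its 13 genes of at least 10000 bp and by 4 of its 14 shorter genes. The strongest were gish, a casein kinase I gene, with 1083 at 157 bp from its TSS, gro, the Groucho corepressor gene, with 321 at 119 bp, and sgg, the gene of the GSK3 kinase that marks Arm for destruction, with 269 at 155 bp. Apc, of the same destruction complex, had a promoter peak of 116. Inside the genes of the ligand Wnt4, the receptor Fz2 and the enzyme Notum the strongest peaks had 155, 131 and 123. None of the 5 peaks of fz2 reached the strength of the fz intron peak, and 2 of the 5 were in both replicates' thresholded lists.

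Of 19 genes of the Hedgehog pathway, 6 had an assigned peak, 5 a summit inside and 3 a promoter summit, the last again near the background. A summit inside was held by 5 of its 8 genes of at least 10000 bp and by 0 of its 11 shorter genes. These were led by rdx, whose product directs Ci to degradation, with 548 inside the gene 13222 bp from its TSS and 202 at its promoter. Next came boi, a Hh coreceptor gene, with 317, and dlp, a glypican gene, with 261 inside and 137 at its promoter. dally, another glypican gene, had 138, and ttv, an enzyme gene of heparan sulfate synthesis, 77.1. pxb had 2 assigned peaks, both outside the gene, the stronger with 209. The other 13 genes of the list had none.

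Of 16 other regulators of the segment, 7 had an assigned peak, 1 had a summit inside (hth, 209.8) and 1 a promoter summit (Dll, 368). Both of these last counts lie below the shares over all protein-coding genes, and 1 of the 7 genes of at least 10000 bp held a summit inside, against 38.5%. The forkhead genes slp2 and slp1, with 647 and 302, and odd, a relative of bowl, with 229.7, had peaks outside the gene. drm and sob, the other relatives of bowl, had none. These 5 genes are named here after their values were seen. The median of the strongest assigned peak was 235 in the Hedgehog list, 115 in the Wingless list and 229.7 among these regulators.

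**Figure D4:**
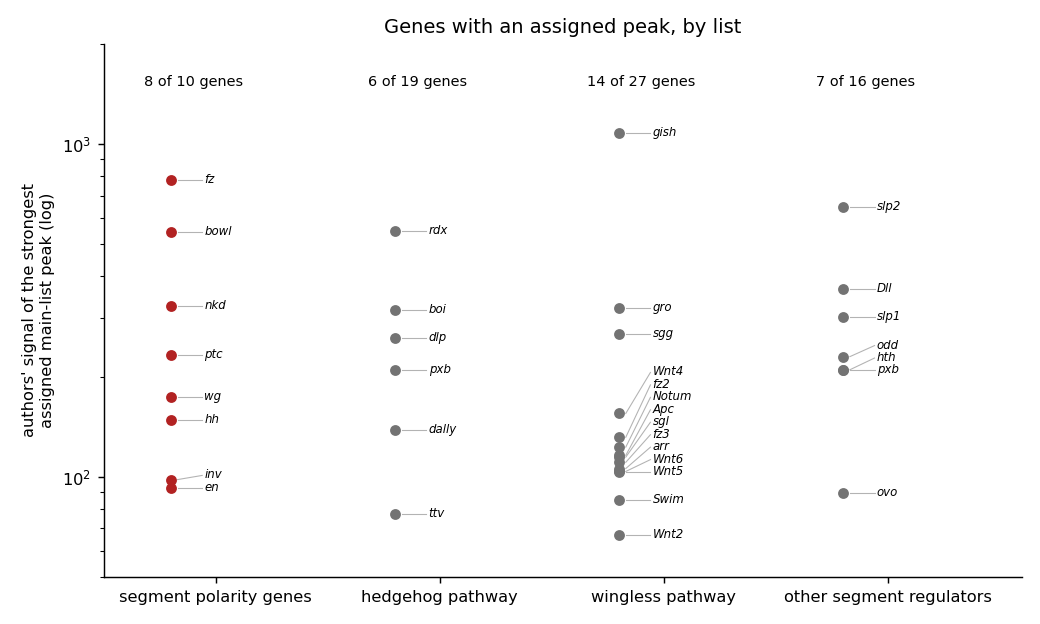
Signal (log scale) of the strongest assigned main-list peak for each gene that has one, for the 10 segment polarity genes (red) and the 3 lists of further genes (grey). Counts above each column give the genes with a peak, which are 8 of 10, 6 of 19, 14 of 27 and 7 of 16. gish (1083) lies highest and fz (780.4) next, and pxb is on both the Hedgehog list and that of other regulators.

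Likeness to the promoter peaks was measured over the pooled list and both replicates' ranked lists, 3 lists of 2 samples, as the Euclidean distance in log2 signal to the strongest promoter peak of each of 1547 other protein-coding genes. Nearest to bowl (544, 344 and 193) were Wdr37 and koko, which share a peak (517, 301 and 194), at a distance of 0.21. Nearest to nkd (151, 62.3 and 97.3) were RpS7 (145, 63.7 and 100.5), a ribosomal protein gene, at 0.08, and CG42613 (156, 60.1 and 91.8) at 0.11.

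In base composition, the 101 bases at the summits of the 26 peaks had a mean GC content of 32.0% ± 8.92 (SD, n = 26), against 37.5% ± 11.4 (SD, n = 3391) at the other main-list peaks. Among peaks away from promoters the means were 32.3% ± 9.12 (SD, n = 24) and 38.0% ± 11.4 (SD, n = 2057). The spreads overlap, and no test was made. GC content was under the mean of both flanks, 300 bp to either side, at 21 of the 26 summits, and at 67% of the other peaks. The 5 exceptions were the fz peaks 13825 and 11336 bp from its TSS, with 48.5% and 54.5% GC, both en peaks, with 42.6% and 49.5%, and the nkd promoter peak, with 34.7%.

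**Figure D5:**
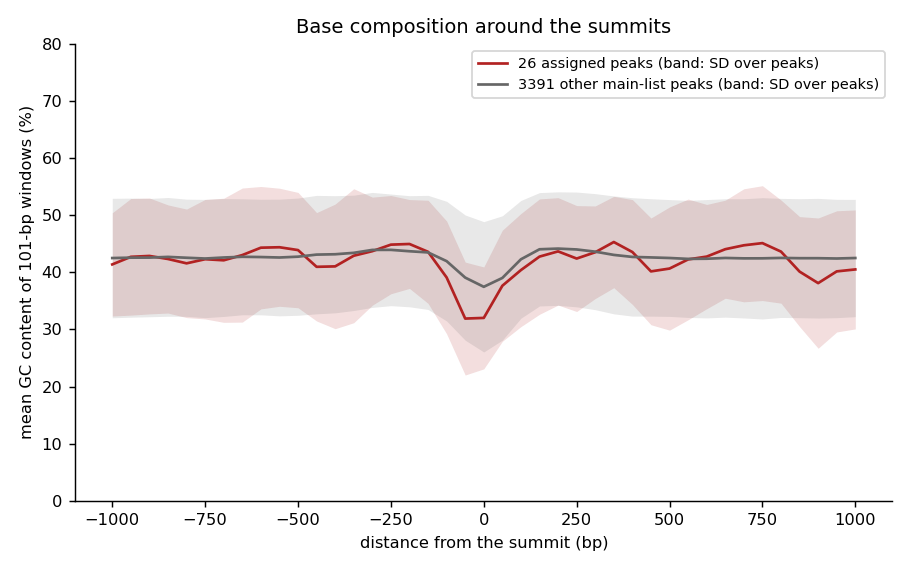
Mean GC content of 101-bp windows by distance from the summit in bp, for the 26 assigned peaks (red) and the 3391 other main-list peaks (grey), with bands of 1 SD over peaks. Both lines dip at the summit, to 32.0% and 37.5%.

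Words of 8 bases were ranked on the 3391 other peaks by how many more summit windows than flanking windows held them on either strand. The first 10 were ATATTTAA, TTAAAAAA, ATTTAAAA, TATTTTAA, TTTAAAAA, AAATATAT, AATTTAAA, ATTTTAAA, AATAAAAT and TATTTAAA, all made of A and T and overlapping one another in sequence. At least 1 of them was found in 9 of the 26 windows (34.6%). The share was 26.3% in the windows of other peaks and 11.9% in their flanks. That other summits exceed their flanks follows from how the words were picked. No share in the flanks of the 26 peaks is given here. The 26 windows were also poorer in G and C on average, and whether this goes with their share of matches was not tested. ATATTTAA, held by 4.19% of other summits and 1.19% of flanks, was found at the bowl promoter, where it is in capitals above, and at the inv peak 24664 bp after the TSS. ATTTTAAA had the highest share of the 10, with 4 windows (15.4%) at wg, ptc and overlapping inv peaks, against 4.57%. Other words went the other way. AATAAAAT was in 0 of the 26 windows. TTAAAAAA, TTTAAAAA, AAATATAT and TATTTAAA were in 1 each (3.85%), also below their shares at other peaks. The fz intron peak and the 3 nkd peaks held none of the 10.

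Motifs of known factors were also searched on both strands. TAATTA, the core bound by En and many other homeodomains, was in 2 of the 26 windows, or 7.69%. These were the wg intron and the last fz intron peak. It was in 8.82% of other peaks and 5.99% of their flanks. GCCAT, the core of the Polycomb-recruiting factor Pho, was in 6 windows, or 23.1%, against 17.5% of other peaks and 18.2% of their flanks. CAGGTAG of Zelda was in 1, against 0.472% of other peaks and 0.634% of their flanks. That 1 was the middle inv peak, with a signal of 41.0. At other peaks, neither of these motifs was thus more frequent at summits than in flanks. TGGGTGGTC of Ci, CTTTGAT of Pan, GAGAGAG of GAGA factor, TATCGATA of DREF and GGTCACAC of M1BP were in 0 of 26, against 0%, 1.45%, 1.06%, 0.914% and 0.442% of other peaks. A match is a string of letters and not a measured site, and its absence says only that these letters are not in this window.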

How the data were processed

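The peak lists were used as the authors deposited them, without reads or counts, so depth is unknown. Per the descriptions deposited with the files, they are narrowPeak lists on dm6, each derived from alignments of the sample and of a control, and for thresholded lists from a further file of regions. Chromatin was sheared to 200 to 800 bp, per the labels. Which aligner and caller were used is not given in the sources used here. For signal, the value the authors deposited per peak, no scale is stated. The authors' score per peak is a whole number of at most 1000, and was at least 830 in each thresholded list. A total of 16 columns of values per replicate in pooled ranked lists were not used, since no label ties them to a sample.

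Gene positions came from Ensembl for the same assembly, and summits (peak start plus offset) on the 6 arms were used. Ensembl was read without TSSs of transposable elements and pseudogenes. Coordinates are 1-based. A promoter is within 500 bp of a TSS. A replicate supports a peak that its list overlaps by at least 1 bp, and the strongest overlapping peak gave the value. No hypothesis test was run: there was 1 group of 2 replicates. Named genes were all 10 genes, up to 6 genes of each list by signal at promoters and up to 6 inside, genes whose TSS is nearest to summits at the 10 genes, and the 2 genes most like each promoter peak. The genes, lists and motifs were chosen with earlier results of these data known. The assignment of peaks was checked on planted positions. Python 3.11.15, numpy 2.4.6, pandas 2.3.3 and matplotlib 3.10.9 were used.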

Additional observations from a re-analysis of the deposited data

How the results depend on the processing

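The count of genes with an assigned peak (8), with a summit inside (6) and with the nearest TSS (8), the 26 assigned peaks and the 15 in both replicates' lists stayed within 1.5 times of these values in the conservative list, with TSSs of protein-coding genes only and with other overlap rules. Leaving out either replicate gave 7 to 8 genes with an assigned peak, 5 to 6 with a summit inside and 18 to 19 assigned peaks, and en had none in the list of replicate 1 or in the conservative list. The conservative list also gave 26 assigned peaks, but of these 24 were in the main list, 2 at fz and nkd were not, and the 2 at en were missing. Among the strongest 500 peaks they were 3, 2, 1, 3 and 3, with 1 promoter summit, and those 3 genes were fz, nkd and bowl. The promoter count of 2 rests on single lists: it was 1 with promoters of 200 bp, where bowl at 208 bp falls out, and from 1 to 2 when either replicate was left out, since the nkd promoter peak is not in the thresholded list of replicate 1. Ranked peaks within 10 kb fell from 522 to 238 when only the TSSs were taken as the centre, because the long genes are then not covered. In alternatives added after the data were seen, peaks in both replicates' lists left 15 assigned peaks and 1 promoter summit, and merging overlapping peaks left 23. No paired analysis was possible because there was 1 group. Depth is unknown, so no floor can be set for a gene without a peak.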
